A study of Caenorhabditis elegans with 2 samples.

Results

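Binding sites of the eGFP-tagged transcription factor CES-1 were examined where they lay between the 5′ ends of genes that point away from each other. Of 4848 summits on autosomes in the thresholded peak list, 580 were of this kind, which is 12%, with an exact 95% binomial interval of 11.1% to 12.9%. A summit is the base at which a peak is highest. The 580 summits were taken from the chromatin immunoprecipitation sequencing (ChIP-seq) peaks on ce11 coordinates in 3 steps. Summits on the X chromosome or the mitochondrial genome were set aside, and so were those in an exon of a protein-coding gene. A summit was then kept when protein-coding 5′ ends of both strands were in reach, each at most 1000 bp downstream or 200 bp upstream of the summit in the direction of its own gene. No signal value entered the choice beyond the authors' own threshold on the list.

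All libraries came from Caenorhabditis elegans strain OP174, which carries the unc-119(ed3) mutant allele and the transgene wgIs174. That transgene holds a copy of ces-1 fused to the TY1, EGFP and FLAG tags, together with a copy of unc-119. There were 2 biological replicates of mixed-stage embryos, of mixed sex and unknown age, taken as whole organisms, and they formed the only group. The antibody entry names only ces-1, and neither a control list nor a strain without the tag was analysed here. Whole embryos mix many cell types, so strong binding in few cells and weak binding in many cannot be told apart.

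CES-1 is a zinc finger protein of the Snail family, a group of factors that bind E-box sequences and are known mostly as repressors. In C. elegans it is known for its part in the fate of sister cells of pharyngeal neurons. A divergent, or head-to-head, pair consists of neighbouring genes on opposite strands whose 5′ ends face the same stretch of intergenic DNA, so that this stretch can serve as the promoter region of both. The worm genome is compact, and housekeeping genes in many animals are often arranged in this way. Many worm transcripts are also trans-spliced, which removes their original start, so an annotated 5′ end can lie downstream of the true start of transcription.

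Sequences of the complete stretch between both starts are given for the 4 strongest divergent summits on chromosomes II to V whose stretch was 300 bases or less and free of protein-coding exons, so that the DNA on both sides of a summit can be read up to the genes it lies between. Their shortness follows from this choice. Each is the plus strand of WBcel235, from the RefSeq genome, written 5′ to 3′, and runs from the base after the start of the minus-strand gene to the base before the start of the plus-strand gene. Capitals mark the 21 bases centred on the summit. The stretches are chrIII:10435989-10436275, chrIV:13098793-13098994, chrIV:13297820-13297925 and chrII:8162171-8162464, in the order printed, with lengths of 287, 202, 106 and 294 bp.
smrd-1/enu-3.1: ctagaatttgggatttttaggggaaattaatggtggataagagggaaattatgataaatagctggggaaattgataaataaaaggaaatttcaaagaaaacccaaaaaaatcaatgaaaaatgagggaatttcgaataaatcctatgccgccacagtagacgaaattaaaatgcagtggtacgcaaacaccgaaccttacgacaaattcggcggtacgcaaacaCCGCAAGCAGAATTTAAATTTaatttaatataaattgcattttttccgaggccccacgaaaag
dli-1/tin-9.2: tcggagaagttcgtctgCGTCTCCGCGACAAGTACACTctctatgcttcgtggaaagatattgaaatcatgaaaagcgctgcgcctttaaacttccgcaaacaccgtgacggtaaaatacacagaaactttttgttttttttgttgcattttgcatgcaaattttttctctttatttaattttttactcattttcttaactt
Y67H2A.2/micu-1: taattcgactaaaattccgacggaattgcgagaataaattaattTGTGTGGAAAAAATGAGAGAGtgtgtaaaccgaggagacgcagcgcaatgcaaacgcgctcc
emb-27/rrf-3: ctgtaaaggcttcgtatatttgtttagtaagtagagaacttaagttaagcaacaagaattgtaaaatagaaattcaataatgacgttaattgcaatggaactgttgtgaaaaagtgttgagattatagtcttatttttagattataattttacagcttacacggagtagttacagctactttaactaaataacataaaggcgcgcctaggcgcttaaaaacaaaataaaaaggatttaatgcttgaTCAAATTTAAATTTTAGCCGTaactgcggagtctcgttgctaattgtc

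The summit lay close to the minus-strand start in the dli-1/tin-9.2 stretch, close to the plus-strand start in the smrd-1/enu-3.1 and emb-27/rrf-3 stretches, and midway in the Y67H2A.2/micu-1 stretch. The dli-1 gene encodes a light intermediate chain of dynein and tin-9.2 a Tim10B subunit of mitochondrial protein import. The summit was 28 bp from the start of dli-1 and 175 bp from that of tin-9.2. The smrd-1 gene encodes a homolog of the chromatin remodeller SMARCAD1, and its start was 235 bp from a summit that was 53 bp from the start of enu-3.1. The Y67H2A.2 gene, named by RefSeq as a kelch domain protein, and micu-1, a regulator of mitochondrial calcium uptake, started only 107 bp apart, with the summit 55 bp from the former and 52 bp from the latter. The emb-27 gene encodes the CDC16 subunit of the anaphase-promoting complex and rrf-3 an RNA-dependent RNA polymerase of small RNA pathways. That summit lay 257 bp from the start of emb-27 and 38 bp from that of rrf-3.

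The divergent summits spread over all 5 autosomes. Chromosome I held 157, which was 13.9% of its thresholded summits, chromosome II held 99 (10.4%), chromosome III 141 (14.7%), chromosome IV 107 (11.3%) and chromosome V 76 (8.73%). Another 1470 autosomal summits passed the same filters but had 5′ ends of 1 strand only in reach, and these unidirectional promoter summits served as the reference. The divergent summits thus made up 28.3% of the 2050 non-exonic promoter summits on autosomes. They belonged to 557 gene pairs, counting for each summit the nearest start on each strand. Of these pairs, 535 had 1 summit, 21 had 2 and 1 had 3. In all, 545 summits were intergenic and 35 lay within the span of a protein-coding gene, in an intron.

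Divergent summits sat close to a start and, in nearly all cases, upstream of both. The distance between the facing starts had a median of 519.5 bp and ran from 54 to 1796 bp, with quartiles of 332 and 780.2 bp. The median distance from the summit was 151 bp to the nearer start and 342 bp to the farther one. A start lay within 200 bp of 383 of the 580 summits (66.0%), and both starts lay within 200 bp of 114 (19.7%). Of unidirectional promoter summits, 570 of 1470 (38.8%) had a start within 200 bp, and their median distance was 266 bp. These distances are a description, since a summit with starts on both sides has more chances to be near one, and the rule bounds both distances.

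Neither strand was favoured. The minus-strand start was the nearer one for 286 summits (49.3%, interval 45.2% to 53.5%) and the plus-strand start for 293 (50.5%). A total of 574 summits were upstream of both starts. The other 6 lay just downstream of 1 start, at malt-1/ceh-38, klp-15/ctnb-1, cdc-37/W08F4.3, cblc-1/ZK546.19, nstp-10/ehbp-1 and clsp-1/eef-2, between 67 and 178 bp inside the gene. The peak interval itself, from its first to its last base, covered neither start for 286 summits, 1 start for 222 and both for 72.

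**Figure D1:**
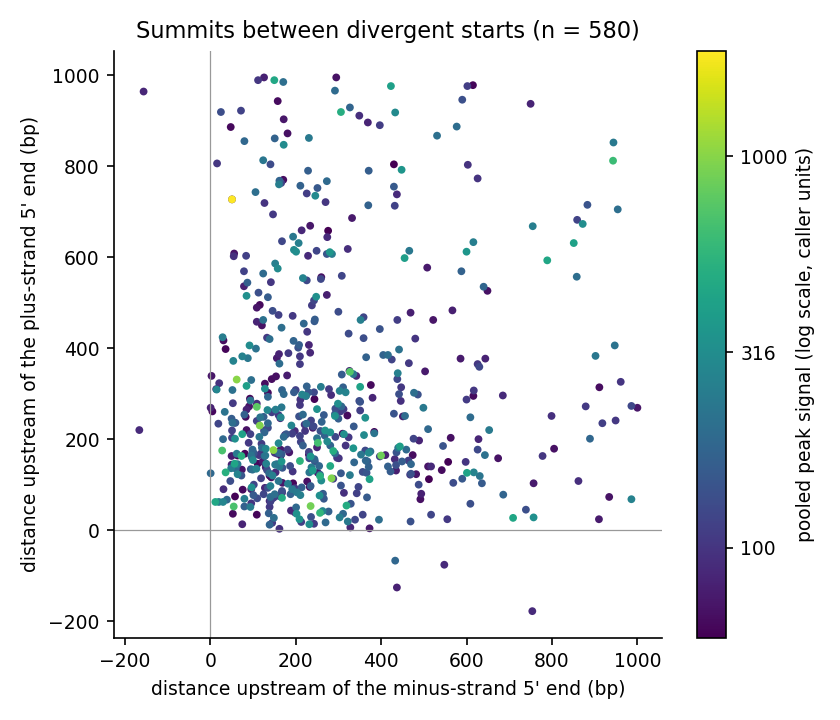
Distance of each of the 580 summits upstream of the nearest minus-strand start (horizontal axis, bp) and of the nearest plus-strand start (vertical axis, bp), coloured by pooled signal on a log scale; negative values lie downstream. Points crowd where both distances are short, the median being 151 bp to the nearer start and 342 bp to the farther, and only 6 points fall below 0 on an axis.

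The distance to the nearer start was larger in longer stretches, which geometry in large part fixes, since a summit between both starts cannot be farther from the nearer one than the midpoint. The median signal did not follow the length in order. In the 120 cases with starts up to 300 bp apart the nearer start was a median of 70 bp away. In the 227 cases from 300 to 600 bp it was 145 bp, in the 162 cases from 600 to 1000 bp it was 212.5 bp, and in the 71 cases above 1000 bp it was 397 bp. The median pooled signal in these classes was 148, 149, 125 and 154.5, in that order. Peaks that covered both starts came mainly from the shortest class, with 61 of the 72, and 11 came from the next. The shortest stretches were 54 bp at cdc-37/W08F4.3, 74 bp at trm-1/ints-2 and 82 bp at K07B1.7/try-5. The longest was 1796 bp at calm-1/F30A10.14, followed by 1755 bp at F53A2.3/nud-1.

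The rule's limits can be seen at its edges. Just inside the upstream limit lay the summits at gbf-1/immp-1, with the farther start 1000 bp away and a signal of 72.6, and at T28F4.4/pbrm-1, at 995 bp with 81.3. Just outside lay those at ent-1/ZK809.5, at 1002 bp with 77.4, and at nep-18/usp-39, at 1014 bp with 682.5. The weakest summits kept were at npp-2/mei-1, with 58.8, and R53.4/psf-1, with 58.9. The first below the authors' threshold were at atp-5/lmtr-3, with 58.2, and hecw-1/elmd-1, with 57.9.

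Gaps between divergent genes held a summit far more often than gaps of like length between genes on the same strand. Among autosomal gaps of 200 to 1000 bp between neighbouring protein-coding genes, 438 of 1400 divergent gaps held at least 1 thresholded summit (31.3%, interval 28.9% to 33.8%). The background was 9.9% of same-strand gaps, 327 of 3303 (interval 8.90% to 10.97%), and 13.6% over gaps of all orientations. Convergent gaps, which have no start at either end, held a summit in 12 of 1001 cases (1.199%, interval 0.621% to 2.09%). The odds ratio of divergent against same-strand gaps was 4.14, with a two-sided Fisher's exact p of 3.07e-67 after Benjamini-Hochberg adjustment over 5 gap comparisons. A divergent gap has 2 starts and a same-strand gap has 1, and the test made no allowance for this. Of the 438 divergent gaps, 437 held at least 1 of the 580 summits. The rule nearly fixes this, since a summit in such a gap lies at most 1000 bp upstream of both starts.

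The difference was present in every length class and on every autosome. From 200 to 400 bp, 36.5% of divergent gaps and 11.7% of same-strand gaps were occupied, an odds ratio of 4.34 (adjusted p = 1.36e-26, Fisher's exact test). From 400 to 600 bp the shares were 35.6% and 10.97% (odds ratio 4.48, adjusted p = 1.06e-22, Fisher's exact test). From 600 to 800 bp they were 28.3% and 8.15% (odds ratio 4.45, adjusted p = 6.46e-17, Fisher's exact test). From 800 to 1000 bp they were 19.5% and 7.33% (odds ratio 3.06, adjusted p = 8.39e-07, Fisher's exact test). In this longest class 0 of 135 convergent gaps held a summit. Only this class lost its call under an alternative, with odds ratios of 1.64 (adjusted p = 0.130, Fisher's exact test) for the strongest 3000 peaks and 1.304 (adjusted p = 0.131) for all 30000 relaxed entries.

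**Figure D2:**
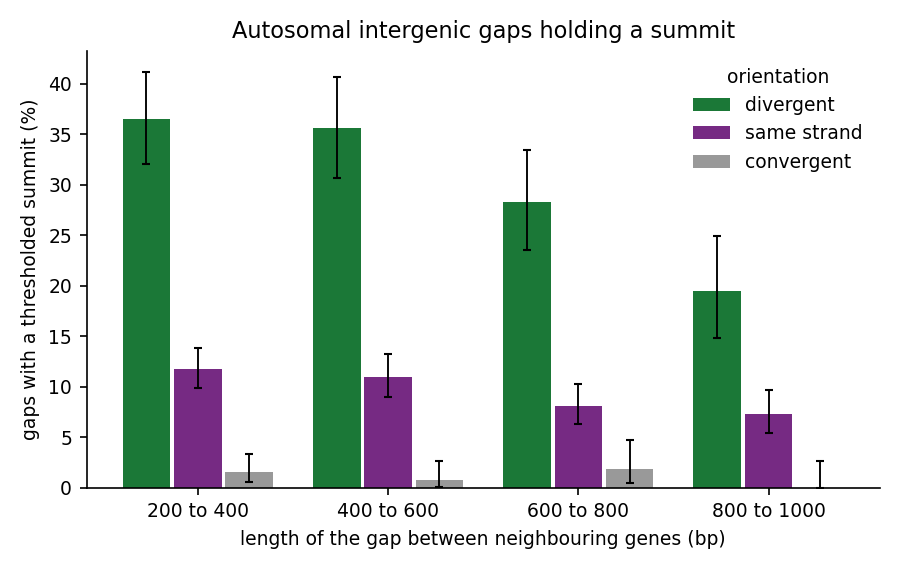
Share of autosomal gaps between neighbouring protein-coding genes that held a thresholded summit (vertical axis, %), by gap length (horizontal axis, bp) and orientation; bars are shares and lines exact 95% binomial intervals. Divergent gaps stand above same-strand gaps in each class, from 36.5% against 11.7% in the shortest to 19.5% against 7.33% in the longest.

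By chromosome, chromosome III had the highest share of occupied divergent gaps, 48.7% of 234, followed by chromosome I with 44.4% of 270. Chromosome IV had 28.7% of 265, chromosome II 66 of 263 and chromosome V 16.8% of 368. Same-strand gaps followed the same order, with 17.1%, 14.9%, 10.7%, 9.88% and 4.54%. On each chromosome the intervals of the divergent and the same-strand share did not overlap. Outside the lengths compared, divergent gaps under 200 bp were occupied in 12.6% of 239 cases and same-strand gaps in 1.56% of 1731, while gaps of 1001 to 2000 bp were occupied in 20.4% of 680 and 9.40% of 1446 cases.

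In signal, the divergent summits were slightly above the unidirectional ones. The signal is the peak caller's own value for the peak, on a scale the sources used here do not state. The pooled signal of the 580 ran from 58.8 to 1863 with a median of 138.7 and quartiles of 96.5 and 220.3, against a median of 122.9 for the unidirectional summits, whose strongest reached 3177. Of the divergent summits, 316 (54.5%, interval 50.3% to 58.6%) exceeded the joint median of 127, against a background of 48.2%, 709 of 1470. The adjusted p was 0.0371 over 3 comparisons, by a two-sided exact median test with Benjamini-Hochberg adjustment. The ratio of medians was 1.13 and stayed above 1 in all 13 alternatives, but the call was lost in 6 of them. Among intergenic summits the ratio was 1.09 (adjusted p = 0.184, exact test), with a single start per gene 1.11 (adjusted p = 0.122), and in replicate 2 alone 1.09 (adjusted p = 0.0913). Among the strongest 3000 peaks it was 1.01 (adjusted p = 0.947, exact test).

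Peak width is set largely by the caller. In the list, 352 of the 580 peaks (60.7%) and 1003 of the 1470 unidirectional peaks (68.2%) had the same width of 390 bp, with the summit at the centre for each of the 352. Peaks wider than this numbered 12 (2.07%) and 21 (1.43%), an excess of 0.640 percentage points (adjusted p = 0.495, exact median test). Narrower peaks numbered 216 (37.2%) and 446 (30.3%). In a comparison added after seeing the data, the share of peaks not at the common width differed by 7.54 percentage points (adjusted p = 0.00395, Fisher's exact test).

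Most divergent summits were found in both replicates. The authors' threshold had itself selected peaks for agreement between these replicates. A high share and similar signals were therefore partly set in advance, here and for the unidirectional summits. A summit counted as found when the relaxed list of the replicate, 30000 entries long, held a summit within 100 bp. This was so in both replicates for 553 of 580 (95.3%, interval 93.3% to 96.9%), in replicate 1 only for 11 and in replicate 2 only for 16, and none was missed by both. The background among unidirectional summits was 94.5%, and the difference of 0.855 percentage points was not called (adjusted p = 0.510, Fisher's exact test). The share depends on the match distance: within 50 bp it was 84.8%, against 81.1% of unidirectional summits, a difference of 3.74 percentage points (adjusted p = 0.0710, Fisher's exact test), and within 200 bp it was 98.1% for both. The median signal of the divergent summits was 70.9 in replicate 1, over 564 summits, and 71.5 in replicate 2, over 569. The replicates' signals lay within 2-fold of each other at 529 of the 553 shared summits (95.7%).

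Agreement between the replicates depended on strength. The standard deviation of the log2 ratio of replicate 2 to replicate 1 was 0.48 over the shared divergent summits and 0.57 over the unidirectional ones. It was 0.31 among the 116 strongest divergent summits and 0.72 among the 116 weakest, of which 102 were found in both replicates. Spearman's rho between the replicates was 0.859 across divergent summits, which share the same 2 libraries and are not independent points.

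**Figure D3:**
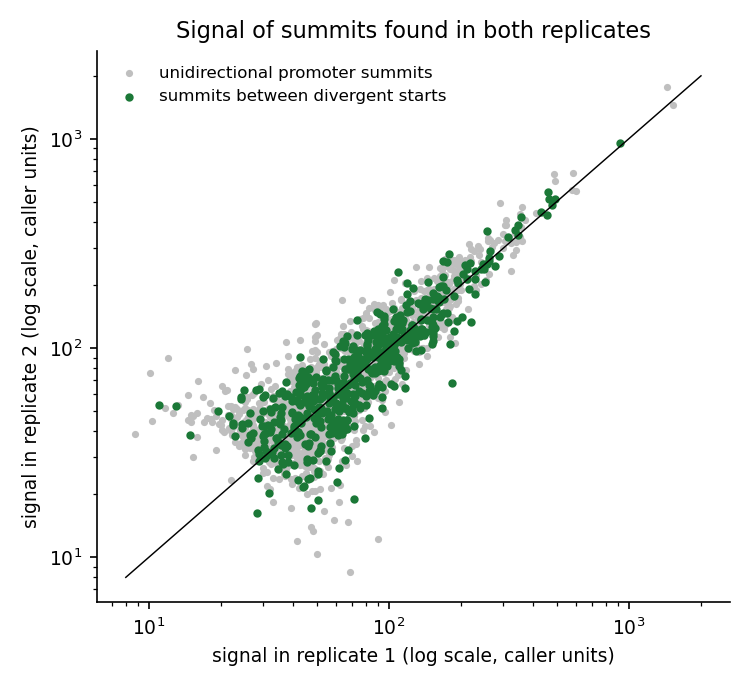
Signal in replicate 1 (horizontal axis, log scale) and replicate 2 (vertical axis, log scale) of the summits found in both, with 553 divergent summits over 1389 unidirectional promoter summits and a line of equality. The strongest divergent summit, with 915.8 and 956.6, lies near the line, and the scatter widens among weak summits.

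The strongest divergent summit lay between C37A2.8 and E02D9.1, on chromosome I from 6799406 to 6799904. RefSeq names the first as a DUF1754 domain protein and the second as a K homology domain protein. Its pooled signal of 1863 was the highest of all 580, with 915.8 in replicate 1 and 956.6 in replicate 2, and it sat 51 bp from the C37A2.8 start and 727 bp from that of E02D9.1. No other divergent summit came near it: the next had 1018. That one lay on chromosome I from 10196875 to 10197378, between aha-1 and C25A1.15. The former is the worm ARNT homolog, a partner of bHLH-PAS factors, and RefSeq names the latter as a transposase. The signal of this summit was 461 in replicate 1 and 557 in replicate 2, and both starts were close, at 148 and 176 bp.

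The next strongest sites included rpl-12/lin-54, drr-2/set-16 and pabp-2/C17E4.6. The rpl-12/lin-54 summit, on chromosome IV from 13240544 to 13240945, had a pooled signal of 1011, with 494 and 514 in the replicates. It was 62 bp from rpl-12, a large-subunit ribosomal protein gene, and 331 bp from lin-54, which encodes a DNA-binding subunit of the DREAM complex. The drr-2/set-16 summit, on chromosome III from 13643466 to 13643899, had 973, with 466.5 and 517. Here drr-2 encodes an RNA-binding protein and set-16 a histone H3 lysine methyltransferase, and their starts were 116 and 230 bp away. The pabp-2/C17E4.6 summit, on chromosome I from 9422223 to 9422592, had 867, with 431 and 444. It lay between the gene of the nuclear poly(A)-binding protein and a VPS72 homolog, at 400 and 164 bp. In each of these 3 cases the replicates were within 2-fold of each other.

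Chaperone genes were at 2 of the 15 strongest sites and the gene of a chaperone activator at another. The C47E8.4/hsp-90 summit, on chromosome V from 14685605 to 14685975, had a pooled signal of 732, with 346 and 389 in the replicates. It lay in an intron, because the hsp-90 start 348 bp away is that of a shorter transcript whose gene begins farther upstream, inside C47E8.4. The hsp-110/rpn-3 summit, on chromosome III from 8447003 to 8447307, had 651, with 313 and 340 in the replicates, and lay 252 bp from the chaperone gene and 192 bp from the gene of a regulatory subunit of the 26S proteasome. The ahsa-1/C01G10.7 summit, on chromosome V from 15085394 to 15085732, had 549.7, with 263 and 290.5. The ahsa-1 gene encodes an activator of the Hsp90 ATPase.

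The rest of the 15 were as follows. The col-71/Y49F6B.2 summit, on chromosome II from 3502680 to 3503039, had a pooled signal of 956, with 480.1 and 483 in the replicates, between a cuticle collagen gene and a gene with a pre-rRNA processing domain. The mrps-17/txdc-9 summit, on chromosome III from 6431703 to 6432081, had 776, with 354 and 422, between genes of a mitochondrial ribosomal protein and a thioredoxin domain protein. The F53A2.3/nud-1 summit, on chromosome III from 13340475 to 13340928, had 622.5, with 255 and 364, and was the farthest from its starts among the 15, at 943 bp from F53A2.3 and 812 bp from nud-1, which encodes a nuclear migration protein. For the sites printed as sequences, the signals in replicates 1 and 2 were 455 and 434 at smrd-1/enu-3.1 (pooled 892), 336 and 365 at dli-1/tin-9.2 (pooled 691), 345 and 345.0 at Y67H2A.2/micu-1 (pooled 689.6), and 287 and 274.5 at emb-27/rrf-3 (pooled 563).

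Summits that shared a pair were of similar strength in some cases and unequal in others. The stretch of 934 bp between dnj-23, a J domain protein gene, and T24H10.4 held 3 summits with pooled signals of 75.1, 63.7 and 59.0, all weak. The 1225 bp between Y38E10A.22 and Y38E10A.24 held a strong summit of 503 and a weak one of 66.0. The 1399 bp between kars-1, the lysyl-tRNA synthetase gene, and kat-1, an acetyl-CoA acetyltransferase gene, held summits of 412 and 98.7 inside a single peak interval.

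In the ranked list of pooled entries, the share between divergent starts was higher above the authors' threshold than below it, and within the kept list it was not highest at the top. Among autosomal entries of ranks 1 to 500, 44 of 391 were divergent (11.3%). The share was 16.5% for ranks 501 to 1000, 15.4% for 1001 to 2000, 12.7% for 2001 to 3000, 13.9% for 3001 to 4000, 8.84% for 4001 to 5000 and 7.97% for 5001 to 6290, the last rank kept by the authors. Below that rank it was 3.54% up to 10000 and 1.43% up to 15000. Over all autosomal entries below the threshold, 284 of 18564 were divergent (1.53%, interval 1.36% to 1.72%). Unidirectional promoter entries made up 30.3% above the threshold and 20.7% below it, and exonic entries 8.15% above and 13.9% below. The relaxed list was deposited as peaks together with background, so its low ranks need not be binding sites.

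**Figure D4:**
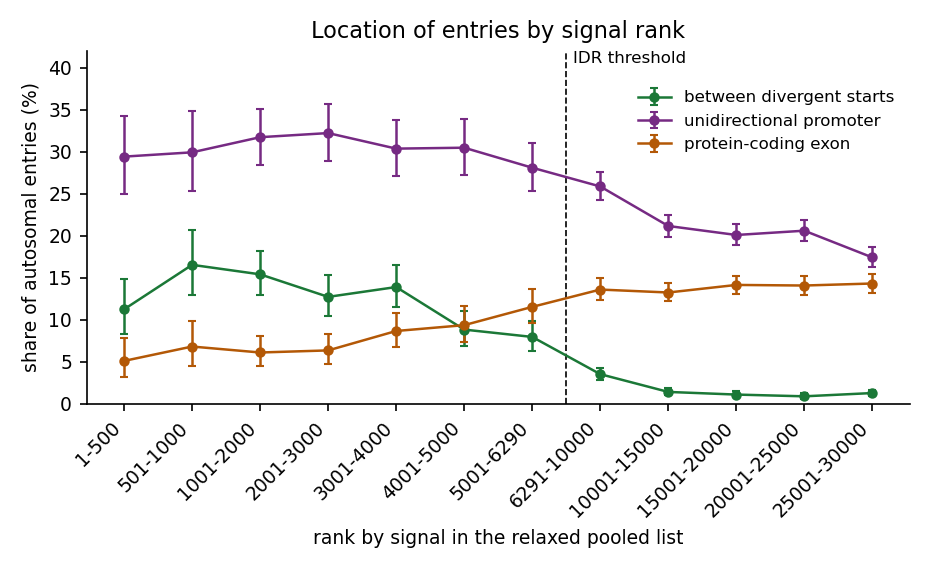
Share of autosomal entries (vertical axis, %) that lay between divergent starts, in a unidirectional promoter or in a protein-coding exon, by rank of signal in the relaxed pooled list (horizontal axis); lines through the points are exact 95% binomial intervals and the dashed line is the authors' threshold. The divergent share is 11.3% at ranks 1 to 500, 16.5% at ranks 501 to 1000 and 1.43% at ranks 10001 to 15000.

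The share of genes with a divergent summit varied widely between gene families, and so did the share with a divergent neighbour at all. Over all 17242 autosomal protein-coding genes, 6.69% had a divergent summit in their promoter window, 14.5% had a non-exonic promoter summit of either kind, and 19.03% had a divergent neighbour within 1000 bp. Of the 3282 genes with such a neighbour, 29.1% had a divergent summit. Both shares are therefore given for each family, since a family with many divergent neighbours has more room for divergent summits. The families below were listed with earlier results of these data known, so counts are set beside these shares without a test. A gene counts whenever a divergent summit is in its window, also where the summit is not in the gap to its own neighbour.

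Cytosolic ribosomal protein genes had the highest share: 37 of 78 had a divergent summit (47.4%), and 47 had a divergent neighbour within 1000 bp. Of those 47, 37 had a divergent summit (78.7%). Their strongest were rpl-12, given above, and rpl-20, with a pooled signal of 503. Mitochondrial ribosomal protein genes had 18 of 70 (25.7%), led by mrps-17 and by mrpl-17 with 472, and 17 of the 25 with a divergent neighbour (68%). Translation factors had 12 of 38 (31.6%), led by the ribosome biogenesis factor eif-6 with 428.5 and the elongation factor eef-1A.1 with 302, and 12 of the 22 with a divergent neighbour (54.55%). Aminoacyl-tRNA synthetases, which charge tRNAs, had 8 of 31 (25.8%), led by kars-1 with 412 and ears-2 with 282, and 6 of the 10 with a divergent neighbour (60%). All 4 shares were above the 6.69% of all genes, and those among genes with a divergent neighbour above 29.1%. Promoter summits of either kind, which include the divergent ones, were also frequent in these 4 families. Their shares were 76.9%, 41.4%, 55.3% and 35.5%, in the order given, against 14.5% of all genes. Whether the excess was particular to divergent summits cannot be read from these shares. Of the genes with either kind, 37 of 60, 18 of 29, 12 of 21 and 8 of 11 had a divergent one, against 1153 of 2496 over all genes.

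Families of protein quality control, splicing, respiration, membrane traffic and transcription had shares from 16.7% to 41.7%. Chaperone and chaperonin genes had 25 of 60 (41.7%), led by hsp-90 and hsp-110, and 21 of the 27 with a divergent neighbour (77.8%). Proteasome genes had 11 of 33 (33.3%), led by rpn-3 and by pbs-2 with 428.5, the latter at the summit shared with eif-6. Among the 20 proteasome genes with a divergent neighbour, 9 had a divergent summit (45%), the lowest such share in this group. Sm and splicing factor genes had 14 of 45 (31.1%), led by sftb-2, a U2 snRNP component, with 441, and prp-21 with 348.5, and 13 of the 26 with a divergent neighbour (50%). Respiratory chain and ATP synthase genes had 15 of 46 (32.6%), led by cox-6B with 307 and cox-14 with 243, and 14 of the 22 with a divergent neighbour (63.6%). The list of Rab, Arf and Arl GTPase genes, mostly of membrane traffic, had 10 of 32 (31.2%). It was led by rab-7 with 238 and arf-6 with 227.5, and had 7 of the 9 with a divergent neighbour (77.8%). Among the 10 were ran-1 and ran-3, which are not Rab, Arf or Arl genes. The list of RNA polymerase and mediator genes had 10 of 60 (16.7%), led by mdt-9 with 348 and mdt-19 with 309. It had 8 of the 12 with a divergent neighbour (66.7%). Among the 10 were taf-11.3, taf-6.2 and taf-4, which are neither polymerase nor mediator subunit genes. For promoter summits of either kind, the shares in these families ran from 35% to 56.7%, against 14.5% of all genes.

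Among cell cycle genes, signals varied. The list of the anaphase-promoting complex, cyclins and their kinases also holds other cell division genes. It had 10 of 45 (22.2%), led by emb-27 and by cdk-5 with 526, and 7 of the 14 with a divergent neighbour (50%). Among the 10 were air-2, ndc-80 and knl-1, which belong to none of the 3 named groups. The median signal of the strongest divergent summit per gene was 137.6 in this list, against 145.7 over all genes with one. Of the 10 genes of the DREAM complex and E2F, 4 had a divergent summit, led by lin-54 with 1011 and by efl-1, an E2F gene, with 459. All 3 with a divergent neighbour had one. Promoter summits of either kind were at 37.8% of the genes of the first list and 50% of the second, against 14.5% of all genes.

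Of 73 homeobox genes, 13 had a promoter summit of either kind (17.8%, against 14.5% of all genes). Only ceh-38 had a divergent one, of signal 184 (1.37% of the list). Only 5 homeobox genes had a divergent neighbour within 1000 bp, 1 of them with a divergent summit. Of 20 pan-neuronal genes, 17 had a promoter summit and 2 a divergent one (10%, against 6.69% of all genes), ric-19 with 182 and tbb-1 with 72.8. Only 2 pan-neuronal genes had a divergent neighbour, and both of those had a divergent summit. Cuticle collagen genes had 4 of 129 (3.10%), led by col-71 and by col-8 with 230.4. Only 18 collagen genes had a divergent neighbour, and 4 of those 18 had a divergent summit (22.2%, against 29.1%). Chemoreceptor genes had 7 of 1276 (0.549%), led by str-12 with 220.3 and sri-5 with 188.5. Of the 129 chemoreceptor genes with a divergent neighbour within 1000 bp, 5 had a divergent summit (3.88%). Promoter summits of either kind were at 5.43% of collagen genes and 1.18% of chemoreceptor genes, below the 14.5% of all genes.

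**Figure D5:**
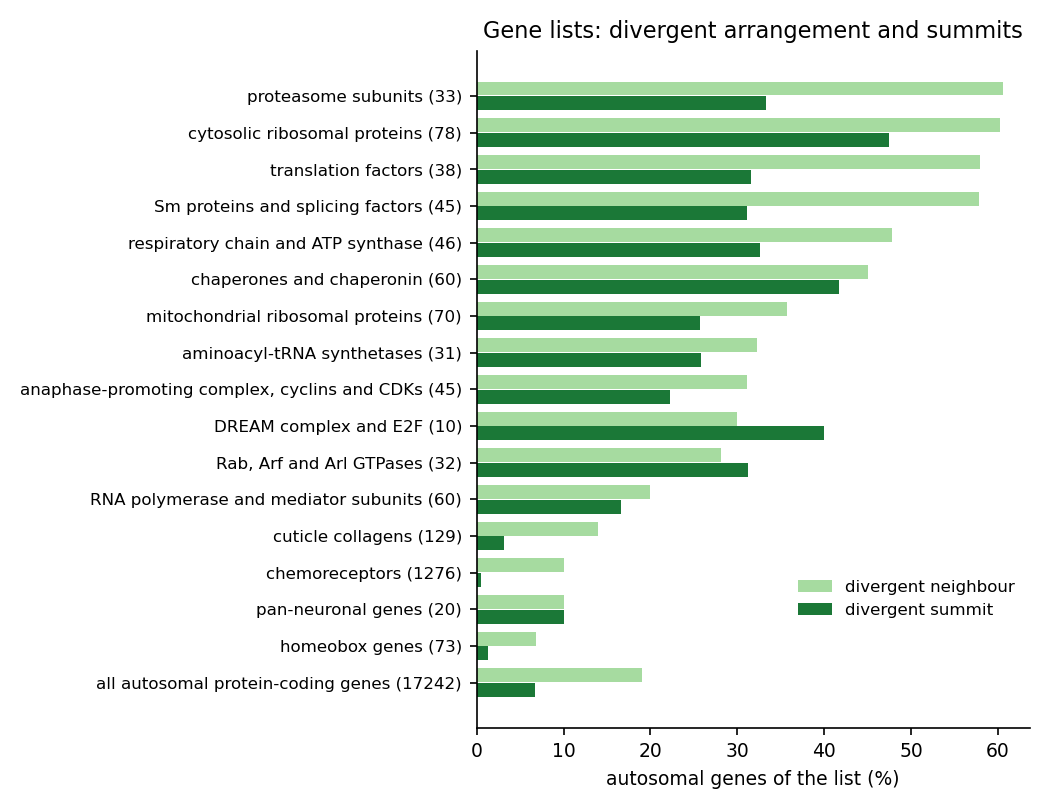
Share of the autosomal genes of each of 16 lists, and of all autosomal protein-coding genes (horizontal axis, %), with a divergent neighbour within 1000 bp (light bars) and with a divergent summit in the promoter window (dark bars); list sizes are in parentheses. Cytosolic ribosomal proteins reach 60.3% and 47.4%, against 19.03% and 6.69% of all genes.

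At 17 of the 580 summits the nearest start on each strand belonged to a listed gene, at 159 only 1 did, and at 404 neither did. Cytosolic ribosomal protein genes faced each other at 3 of the 17, and at rpl-28/mrpl-49, with a signal of 233, a cytosolic faced a mitochondrial one. Among the 3, the rps-10/rpl-24.1 summit had a pooled signal of 334, with 162 and 169 in the replicates. The rpl-39/rps-30 summit had 176, with 76.1 and 98.3, and the rps-14/rpl-36 summit 103, with 44.2 and 71.3. Starts in these 3 pairs were 610, 499 and 663 bp apart. Other pairs joined different families, such as pas-4, a proteasome alpha subunit gene, with rpb-3, an RNA polymerase II subunit gene, at a signal of 266. Another was nars-1, the asparaginyl-tRNA synthetase gene, with nduf-6, a complex I gene, at 230.2. The splicing factor genes rsp-2 and rsp-1 faced each other at 166. The small heat shock genes hsp-16.2 and hsp-16.41 did so at 87.2, and since hsp-16 genes have similar copies, the placing of reads there is uncertain.

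The DNA at the summits was richer in G and C than divergent gaps without a summit. Over the 101 bp centred on each summit the median GC content was 42.6% for the divergent and 41.6% for the unidirectional summits. It was 32.7% at the centre of the 962 divergent gaps of 200 to 1000 bp without a summit and 32.7% in windows centred 150 bp upstream of all autosomal gene starts. At 500 bp to either side of the divergent summits it was 37.6%. The farther start was a median of 342 bp away, so many of these windows lay past a start and outside the gap. GC content can also change the yield of sequencing, and its part in these values was not tested.

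Short motifs were sought in the same windows on both strands, each counted on its own. The Snail-type E-box CAGGTG was in 8 of the 580 windows (1.38%, interval 0.597% to 2.70%), against 2.11% of unidirectional summits, 2.60% of divergent gaps without a summit and 2.70% of all promoters. CTGCGTC was in 41 (7.07%), against 11.6%, 1.04% and 1.89% in the same order. GAGAGA was in 89 (15.3%), against 24.8%, 6.34% and 8.17%. GGCGGG was in 24 (4.14%), against 4.01%, 2.91% and 2.26%. TATAAA was in 50 (8.62%), against 8.10%, 14.03% and 13.6%. CTGCGTC and GAGAGA were thus more frequent at divergent summits than in divergent gaps without one, with intervals that did not overlap, and less frequent than at unidirectional summits, where the intervals of 5.12% to 9.47% and 12.5% to 18.5% were below 10.04% to 13.4% and 22.6% to 27.1%. TATAAA was less frequent at divergent summits (interval 6.47% to 11.2%) than in divergent gaps without one (11.9% to 16.4%). Differences in GC content between the sets were not allowed for.

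In the printed stretches, the one at dli-1/tin-9.2 holds CTGCGTC 10 bp from the summit. The Y67H2A.2/micu-1 stretch holds GAGAGA 6.5 bp from the summit and CTGCGTC on the other strand 29 bp away, distances being to the centre of the motif. The smrd-1/enu-3.1 stretch holds TATAAA 20.5 bp from the summit, and the emb-27/rrf-3 stretch holds none of the 5 motifs. A match is a description of the letters and not evidence of a bound site.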

How the data were processed

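Peak lists from 2 biological replicates of 1 group were used on ce11 coordinates. Per the submitters' notes, the authors made relaxed lists of 30000 entries, peaks with background, for each replicate and for the pooled replicates against a control, and kept pooled peaks by an irreproducible discovery rate (IDR) step. Sources used here do not name the aligner or the peak caller, nor the read depth, which is therefore unknown. The signal per peak is the authors' deposited value. It was used to describe and rank peaks and to compare their medians. Lists on ce10 were not used.

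Summits were placed on the WBcel235 annotation of Ensembl release 115, counted from 1, and sequence came from the RefSeq genome of that assembly, in which 99.9% of annotated start codons read ATG. Gaps were stretches free of protein-coding exons between neighbouring genes. The exact median test applied Fisher's exact test, two-sided, to counts above the joint median, and p-values were adjusted by the Benjamini-Hochberg method with a threshold of 0.05. The tests treat neighbouring summits and gaps as independent, and were checked on simulated data. Intervals of shares are Clopper-Pearson intervals at 95%, for counting error alone. Named genes are those of the 15 strongest summits, the 3 pairs with the most summits, up to 2 genes per list, and the summits at the edges of the rule. Other genes named, such as those downstream of a start, at the shortest and longest stretches or with listed genes at both starts, were chosen after their values were seen. Members and lists were chosen with earlier results of these data known. Alternatives varied the window, the exon filter, the start set, the peak set, the replicate and the match distance. Python 3.11.15, NumPy 2.4.6, pandas 2.3.3, SciPy 1.17.1 and matplotlib 3.10.9 were used.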

Additional observations from a re-analysis of the deposited data

How the results depend on the processing

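Of 76 recomputed values, 62 were rated as unchanged. For a comparison this meant the same direction and the same side of the threshold. Counts of divergent summits have neither, and those rated as unchanged ran from 408 to 812. The number of divergent summits was 328 with the strongest 3000 peaks, 408 with a window 500 bp upstream and 812 with one 2000 bp upstream. It was 668 with exonic summits kept, and 588 and 598 with replicates 1 and 2 left out. The signal ratio of 1.13 lost its call with a window 500 bp downstream (1.13), 1 start per gene (1.11), the strongest 3000 peaks (1.01), intergenic summits (1.09), replicate 1 left out (1.09, adjusted p = 0.0913, exact test) and, added after seeing the data, summits within 500 bp of a start (1.12). With 1 replicate left out the ratio ran from 1.09 to 1.14, and only leaving out replicate 1 ended the call. Width was compared over the joint median of each alternative, which need not be 390 bp. With the strongest 3000, 46.65% of divergent and 51.2% of unidirectional peaks exceeded it, a difference of -4.59 percentage points. This is another measure than the main excess of peaks wider than 390 bp. With 1 replicate left out the difference over the joint median ran from -0.415 to -0.262 percentage points. The share not at the common width, added after seeing the data, differed by 7.54. The difference in share found in both replicates turned to -1.41 percentage points with the strongest 3000. The causes were not tested.

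The gap comparison from 200 to 1000 bp kept its call in all 6 alternatives, with odds ratios from 2.35 with all 30000 relaxed entries to 4.42, and 4.16 and 4.23 with 1 replicate left out. No paired analysis was possible because there was only 1 group. Lists on ce10 were not compared because the annotation is on ce11. Read depth is unknown, so precision rests on the number of summits and gaps alone.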

Other observations

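Non-coding genes lay between the facing starts at some divergent summits. An annotated ncRNA was there for 66 of 580 (11.4%), a piRNA for 8, a snoRNA for 3, a tRNA for 3, a miRNA for 2, an antisense RNA for 2 and an snRNA for 1. Such counts are not given here for divergent gaps without a summit, so these cannot be read as particular to the summits. Signal from such a gene's own promoter and from those of the protein-coding pair cannot be told apart.

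The replicates differed most at weak summits. At npp-27/ntl-4 the signal was 11.1 in replicate 1 and 53.2 in replicate 2, at the histone pair his-60/his-59 it was 12.9 and 52.6, and at R186.8/lin-46 it was 71.6 and 18.9. Histone genes have near-identical copies, so the placing of reads there is uncertain. These 3 sites were chosen after their values were seen.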
